A study of Mus musculus with 6 samples.

Results

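The Hox cluster genes were examined in epiblast-like cells (EpiLCs) with and without the transcription factors Smad2 and Smad3. They are the 39 genes of the 24288 symbols in the expression table that are named Hox, a cluster letter from a to d and a paralog number. The values, counts and figures cover 38 of these genes, called the members from here on. The rule uses names alone and no measured value, although the topic was proposed with earlier results of these data known. Where a symbol had more than 1 row, the row with the highest total was taken.

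EpiLCs are mouse embryonic stem cells (ESCs) moved from 2i medium with LIF into medium with activin A at 20 ng/ml and Fgf2 at 12 ng/ml, and they were collected after 48 h, on day 2. Wild-type (WT) EpiLCs came from the ESC line CCE (n = 3), and double knockout (DKO) EpiLCs came from the single clone KT15.1F6 (n = 3), which carries the Smad2 tm1Rob allele on both chromosomes and a deletion of Smad3 exon 1 made with a Cas9 nickase. Both lines are of strain 129/Sv//Ev, were grown without feeder cells and received the same activin A, and each library was an independent differentiation of its line. With 1 line per genotype, a difference between the lines and an effect of the genotype cannot be told apart. The labels do not say whether equally numbered differentiations were run side by side.

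Hox genes encode homeodomain transcription factors that give cells a position along the head to tail axis. In mammals they lie in 4 clusters, and paralogs, the genes with the same number in different clusters, stem from a common ancestor. Genes with low numbers are used first and furthest forward in the embryo, and genes with high numbers later and further back, in an order that follows their order on the chromosome. The first of them are switched on in the primitive streak, downstream of Wnt, Fgf and retinoic acid signals, while in ESCs and in the epiblast the clusters are held under Polycomb repression and carry few transcripts. Smad2 and Smad3 carry the signal of Nodal and activin receptors into the nucleus.

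Depth was similar, from 57644143 to 63046034 reads per library over 1 row per gene. The values are normalized reads, that is, reads divided by a size factor of the library and not by gene length. Each mate of a read pair was counted, since only 26.8% to 30.4% of the counts below 20 reads were odd, so that 1 read pair corresponds to 1.04 to 1.14 normalized reads and a value of 10 rests on about as many read pairs. Smad3 had 839 ± 37.0 normalized reads (SD, n = 3, here and throughout) in WT and 23.6 ± 6.16 in DKO, whereas Smad2 had 4520 ± 86.3 and 5062 ± 109, a count over the whole gene body that does not show the allele. Of 7 EpiLC markers all were present, and Fgf5 (3235 and 798), Pou3f1 (6064 and 3948) and Sox2 (2798 and 7741 normalized reads in WT and DKO) differed between the genotypes. In bulk RNA, fewer cells that express a gene and less RNA per cell cannot be told apart.

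The 250 bases before the start of the 6 Hox genes that passed the test are shown first, because they are the sequences upstream of the changes described here. They are from RefSeq on build GRCm38.p6, all on the plus strand, 5′ to 3′: Hoxd13 at chr2:74667975-74668224, Hoxd11 at chr2:74682073-74682322 (before its coding transcript), Hoxd3 at chr2:74711743-74711992, Hoxd1 at chr2:74762730-74762979, Hoxb4 at chr11:96318017-96318266 and Hoxb1 at chr11:96365508-96365757. Capitals mark matches, on either strand, to CAGAC (letters bound by Smad3 and Smad4), GGCGCC (a GC-rich Smad element), TTTATG (a Cdx element) or TAATTA (a homeodomain element).
Hoxd13: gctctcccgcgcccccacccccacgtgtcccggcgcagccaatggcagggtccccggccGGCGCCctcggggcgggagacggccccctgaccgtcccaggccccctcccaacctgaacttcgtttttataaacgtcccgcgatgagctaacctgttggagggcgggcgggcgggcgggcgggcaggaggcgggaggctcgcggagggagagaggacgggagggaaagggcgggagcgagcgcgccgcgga
Hoxd11: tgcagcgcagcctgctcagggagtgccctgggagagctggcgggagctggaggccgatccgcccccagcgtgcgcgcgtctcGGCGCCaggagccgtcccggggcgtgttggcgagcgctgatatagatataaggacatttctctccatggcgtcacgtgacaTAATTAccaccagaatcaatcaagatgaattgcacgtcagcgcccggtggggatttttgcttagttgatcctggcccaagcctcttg
Hoxd3: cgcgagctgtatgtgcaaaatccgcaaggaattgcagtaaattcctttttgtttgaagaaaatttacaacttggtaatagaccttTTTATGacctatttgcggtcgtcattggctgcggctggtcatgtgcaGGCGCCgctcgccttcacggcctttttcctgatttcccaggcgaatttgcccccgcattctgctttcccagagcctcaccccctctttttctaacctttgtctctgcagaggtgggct
Hoxd1: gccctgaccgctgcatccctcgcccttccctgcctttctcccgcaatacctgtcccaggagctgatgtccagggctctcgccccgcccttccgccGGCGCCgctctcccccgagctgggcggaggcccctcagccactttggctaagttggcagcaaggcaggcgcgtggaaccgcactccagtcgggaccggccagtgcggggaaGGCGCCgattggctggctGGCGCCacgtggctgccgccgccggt
Hoxb4: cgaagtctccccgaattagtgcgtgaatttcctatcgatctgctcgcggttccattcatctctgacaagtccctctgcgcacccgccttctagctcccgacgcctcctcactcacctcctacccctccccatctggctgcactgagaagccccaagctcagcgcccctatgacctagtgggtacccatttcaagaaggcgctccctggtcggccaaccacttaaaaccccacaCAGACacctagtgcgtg
Hoxb1: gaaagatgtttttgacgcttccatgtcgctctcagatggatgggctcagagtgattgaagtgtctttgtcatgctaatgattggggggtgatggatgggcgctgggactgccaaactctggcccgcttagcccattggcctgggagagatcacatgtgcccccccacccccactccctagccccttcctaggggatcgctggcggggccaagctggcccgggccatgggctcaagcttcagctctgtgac

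CG steps, the pairs of bases that DNA methylation acts on, were frequent in 5 of these windows. There were 31 in the window of Hoxd13, 24 in that of Hoxd1, 20 in that of Hoxd11, 14 in that of Hoxb4, 12 in that of Hoxd3 and 7 in that of Hoxb1, against a median of 6 over all 32851 RefSeq promoter windows of the same length. The other window of Hoxd11, not shown, lies before the longer non-coding transcript that was counted. It has 2 CG steps and 1 match each to TTTATG and TAATTA. RefSeq windows were found for 22 of the 38 members (24 windows, as Hoxd11 and Hoxa10 have 2 each), and over these the median was 12.5 CG steps and 58.6% G and C bases, against 52.4% over all windows. GGCGCC was found in 5 of the 24 Hox windows (20.8%, against 9.59% of all), TTTATG in 5 (20.8%, against 10.8%), CAGAC in 7 (29.2%, against 42.2%) and TAATTA in 2 (8.33%, against 4.84%). Both windows with TAATTA are those of Hoxd11, a single gene. Of the 6 windows shown, Hoxd1 has 3 matches to GGCGCC and none to the other letters, while the window of Hoxb1 has no match to any of the 4. Other Hox windows have none either, such as those of Hoxd8 and Hoxd10, whose values lay lower in DKO without overlap. Whether matches go with the direction of change was not tested.

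Hox genes were weakly expressed in EpiLCs of both genotypes. A group mean of at least 10 normalized reads, taken as detection, was reached by 7 of the 38 members in WT, 5 in DKO, 8 in either and 4 in both. Those in either are 21.1% of the members, against 67.0% of all gene symbols. The limit is not adjusted for gene length, so this comparison also depends on the lengths of the genes. No read in any library was found for 3 genes, Hoxa6, Hoxb8 and Hoxc11, which at 3 read pairs allows up to 3.11 to 3.41 normalized reads in a library. Just above the limit stood Hoxc13 (10.2 in WT) and Hoxb4 (11.9 in WT), and just below it Hoxa3 (9.77), Hoxb7 (9.67) and Hoxb9 (9.45), all in WT, so the count of detected genes moves with the limit.

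A single gene stood out in level. Hoxd13, at the 5′ end of its cluster, is in the embryo a gene of digits and the urogenital region. Per kilobase of gene body its mean level of 38.6 normalized reads in WT was 5.32 times that of Hoxb1 and 28.9 times that of its neighbour Hoxd12. After Hoxd13, the highest levels per kilobase in WT among the 38 were those of Hoxb1 (7.26), Hoxb2 (6.01), Hoxd1 (3.69) and Hoxb4 (3.52), among which the libraries of Hoxb1 (17.1 to 19.2 normalized reads over 2.51 kb) and Hoxb2 (8.53 to 19.3 over 2.38 kb) overlapped. Hoxd13 stood at percentile 55.7 of the 16997 tested genes with a position, per kilobase in WT, and Hoxb1 at percentile 32.5. Lengths here are whole gene bodies with introns, so these ranks depend on gene structure as well as on level. They do not show that Hoxd13 has more RNA than a typical gene.

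**Figure D1:**
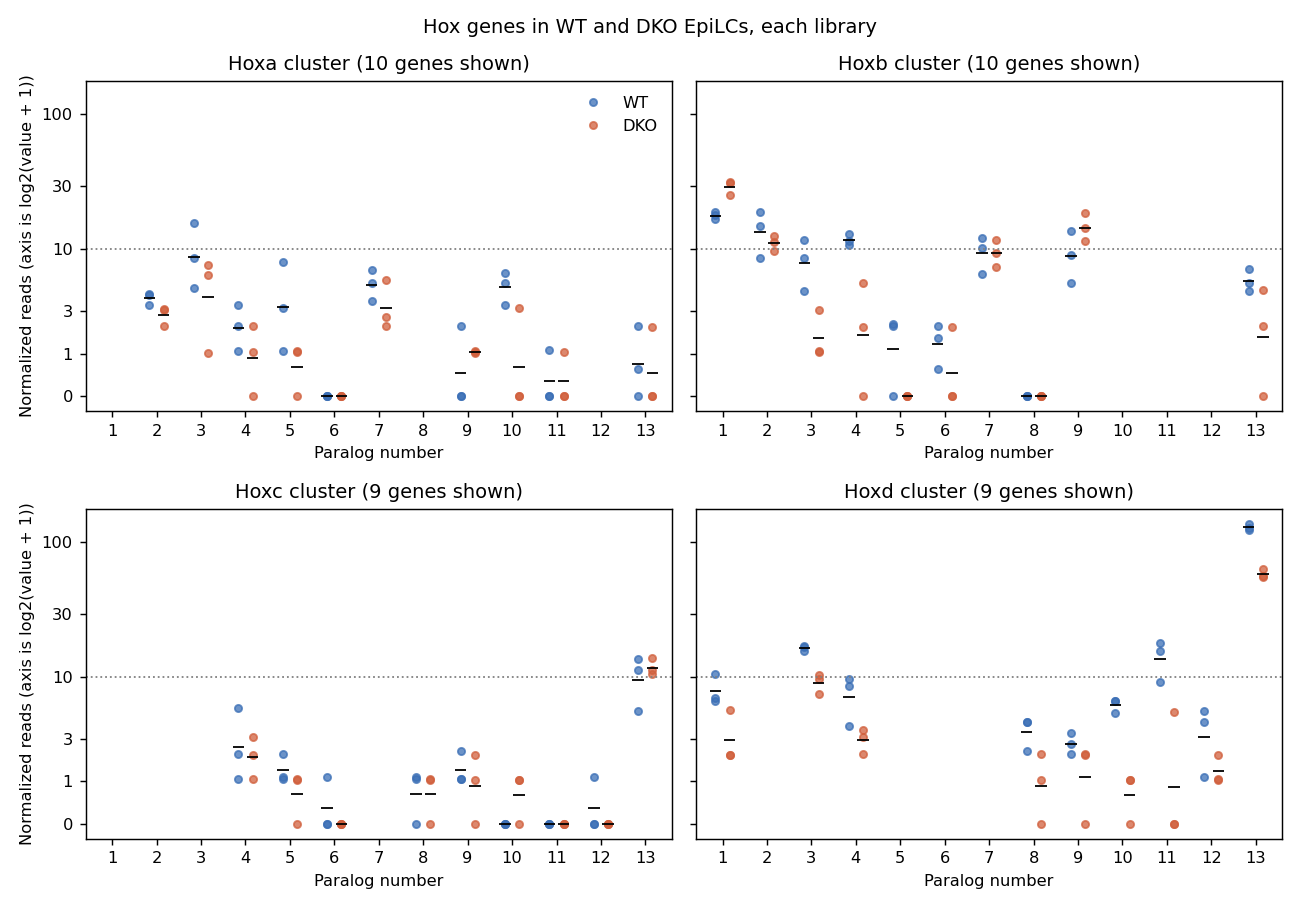
Normalized reads of 38 Hox genes by paralog number, in 1 panel per cluster. Each point is a library (WT blue, DKO red), black lines are means of log2(value + 1), the axis is on that scale and the dotted line marks 10 normalized reads. Hoxd13 is the highest of them in every library. The means of the Hoxd genes lie lower in DKO, with overlapping libraries for Hoxd9 and Hoxd12, and Hoxb1 lies higher.

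DKO EpiLCs differed from WT in 6 of the 38 Hox genes. Hoxd13, Hoxd11, Hoxd3, Hoxd1 and Hoxb4 fell and Hoxb1 rose, at an adjusted p under 0.05 and a fold change over 1.5 (limma on log2(value + 1), with Benjamini-Hochberg adjustment over all 17038 genes tested). Among all genes tested 15.4% passed in either direction, 8.04% as lower and 7.35% as higher in DKO (15.5% in either direction with edgeR, 14.5% with DESeq2 and 13.2% with limma but no filter on low counts). The 6 are 15.8% of the 38 members, a share that cannot be set against the first one directly, because 26 of the 38 had too few reads to be tested. With no filter on low counts, 13 of the 35 members with a read passed (37.1%, against 13.2%), 12 of them as lower. The 13 include Hoxd3 and Hoxd4, which share reads, and Hoxa5 and Hoxb13, whose values overlapped between the genotypes. Whether this share differs from that of genes with as few reads was not tested. The 12 members with enough reads to be tested had a median log2 fold change of -0.68 against 0.00 over all genes tested. The filter on low counts can let a gene through on its higher group alone, so neither this median nor the share among the 12 is read as a result. Of the 35 members with a read, 30 had a lower mean in DKO, against 50.4% of all 21655 genes with a read. The 3 DKO values lay below the 3 WT values without overlap in 11 of the 35 and above them in 1, each against 24.3% of all genes with a read.

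The cluster with most of these genes was Hoxd. All 9 of its genes had a lower mean in DKO, 7 of them with DKO and WT values apart, and 4 of the 9 passed as lower. Over all genes with a read, 50.4% had a lower mean in DKO and 24.3% lay apart and lower. Of all genes tested, 8.04% passed as lower. The 4 were the only Hoxd genes tested, and the filter can let a gene through on its WT values alone. Hoxd3 and Hoxd4 share reads, and outside Hoxd4 the values of Hoxd3 overlapped, so the 7 and the 4 both include Hoxd3 on shared reads. Of the members of the other clusters, values lay apart and lower for 2 in Hoxa, 2 in Hoxb and 0 in Hoxc. That the clusters differ in this was not tested.

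Hoxd13 (NM_008275, chromosome 2, 74668310 to 74671599, plus strand, mm10) had 126, 134 and 121 normalized reads in the WT libraries and 55.4, 56.7 and 63.2 in the DKO libraries. The groups were far apart, and the DKO mean was 46.0% of the WT mean. Its mean fell from 127 ± 6.71 to 58.5 ± 4.18 (log2 fold change -1.11 with an SE of 0.12, limma, adjusted p = 2.90e-08). Per kilobase its level in DKO was 1.49 times that of Hoxb1.

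Hoxd11 (chromosome 2, 74679557 to 74687016, plus strand) is counted over its longest transcript, a non-coding one that spans the coding gene. Its WT libraries had 9.13, 15.9 and 18.1 normalized reads, while DKO libraries 1 and 2 had none and DKO library 3 had 5.18. The fit gave -3.02 ± 0.58 on the log2 scale (limma, adjusted p = 7.95e-05), but with DKO libraries at 0 its size depends on the pseudocount, and DESeq2 on the same reads gave an adjusted p of 0.137. In read pairs, 40 in WT stood against 5 in DKO, a ratio of 0.121 (95% interval 0.0372 to 0.306, exact, counting error only). Most of these reads came from the body of the coding transcript (NM_008273, 74682323 to 74684168), with 12.2 ± 3.66 in WT and 1.21 ± 2.09 in DKO.

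Hoxd3 and Hoxd4 share their reads in part. The body of Hoxd3 (74711927 to 74748271, 36.3 kb) contains that of Hoxd4 (74721978 to 74729160), and in all 6 libraries the Hoxd3 count was at least that of Hoxd4. Hoxd3 fell from 17.2, 17.1 and 16.001 normalized reads in WT to 9.69, 7.35 and 10.4 in DKO (log2 fold change -0.82 ± 0.29, limma, adjusted p = 0.0206). With the Hoxd4 reads taken out, 9.36 ± 3.41 in WT and 6.16 ± 1.74 in DKO were left and the values overlapped. Hoxd4 itself had too few reads to be tested, with 8.60, 3.98 and 9.60 in WT above 2.15, 3.15 and 3.63 in DKO. The call for Hoxd3 was lost without WT library 1, WT library 2 or DKO library 2 (adjusted p = 0.0567, 0.0529 and 0.0757 with limma).

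Hoxd1, at the 3′ end of the cluster (74762980 to 74765142), had 6.45, 6.83 and 10.7 normalized reads in WT and 5.38, 2.10 and 2.07 in DKO. It fell by 1.16 ± 0.45 on the log2 scale (limma, adjusted p = 0.0320), and the call was lost without WT library 2 or 3 or DKO library 2 or 3 (adjusted p from 0.0521 to 0.136). Hoxd10, a regulator of hindlimb motor neurons, was not tested but had 6.45, 5.12 and 6.40 in WT and 0, 1.05 and 1.04 in DKO. That is 17 read pairs against 2, a ratio of 0.114 (0.0127 to 0.478). Hoxd8 had 3.61 ± 1.16 in WT and 1.06 ± 1.08 in DKO, also apart, while the values of Hoxd9 (2.74 and 1.42) and Hoxd12 (3.59 and 1.40) overlapped between the genotypes.

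Genes that flank the Hoxd cluster or lie within it were examined beside it. Evx2, the homeobox gene beside Hoxd13, had no read in WT and 0.54 normalized reads in 1 DKO library. Mtx2, the mitochondrial transport gene that flanks the cluster beyond Hoxd1, had 2099 ± 54.3 in WT and 2318 ± 44.8 in DKO, and this difference (0.14 ± 0.03 on the log2 scale) did not reach 1.5-fold. Haglr, the long non-coding RNA transcribed on the other strand between Hoxd3 and Hoxd1, had 17.7, 15.9 and 11.7 in WT and 7.53, 17.9 and 9.85 in DKO. These values overlapped and did not pass (log2 fold change -0.40 ± 0.32, limma, adjusted p = 0.303).

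**Figure D2:**
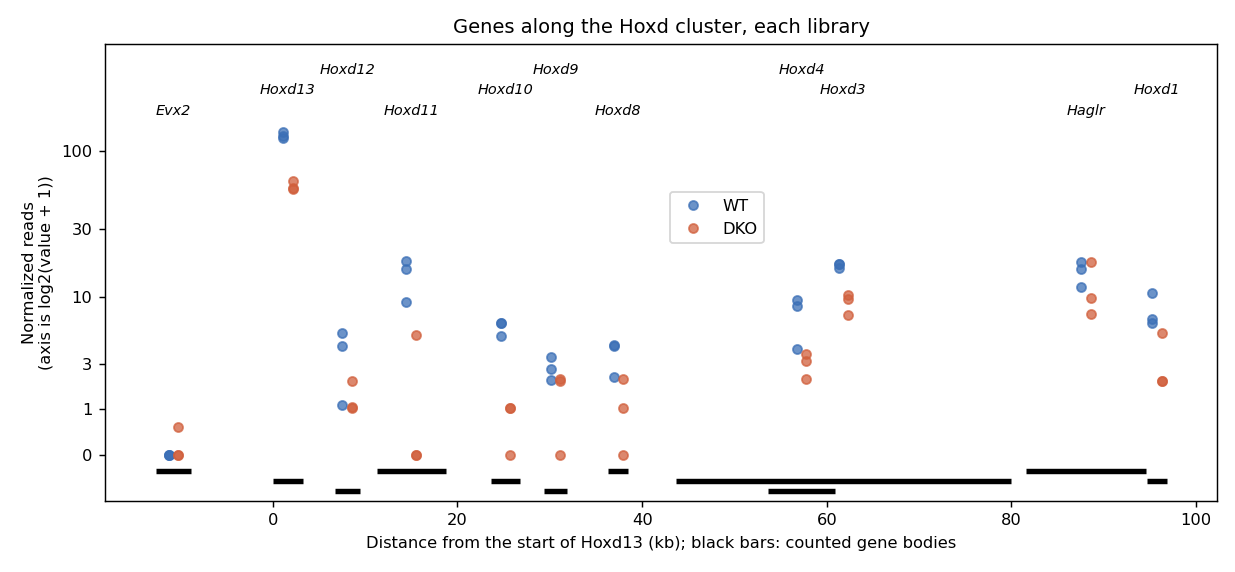
Normalized reads (log2(value + 1) axis) of the genes along the Hoxd cluster against distance from the start of Hoxd13 in kb, with counted gene bodies as black bars. Each point is a library at the middle of its gene (WT blue, DKO red, set 1 kb apart). Hoxd13 is highest at 121 to 134 in WT and 55.4 to 63.2 in DKO, Evx2 beside it is near 0, and the values of Haglr overlap.

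In the Hoxb cluster, 2 genes passed and they went opposite ways. Hoxb4 (NM_010459, chromosome 11, 96318267 to 96321638, plus strand), known for its effect on blood stem cells, had 10.7, 13.1 and 11.7 normalized reads in WT and 5.38, 0 and 2.07 in DKO. All DKO libraries lay below all WT libraries, and the fitted difference was -2.25 ± 0.52 on the log2 scale (limma, adjusted p = 7.19e-04), a size that ran from -0.83 with a pseudocount of 10 to -3.49 with one of 0.1, as a DKO library had no read (ratio of read pairs 0.205, 0.0764 to 0.471). Without DKO library 2 the log2 fold change was -1.53 with the call kept.

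Hoxb1 (NM_008266, chromosome 11, 96365752 to 96368256, plus strand), the gene of hindbrain rhombomere 4, had 18.3, 17.1 and 19.2 in WT and 32.3, 31.5 and 25.9 in DKO. It was the only one of the 38 to pass as higher, by 0.68 ± 0.22 on the log2 scale (limma, adjusted p = 0.0117). Hoxb3, between them, was not tested and had 11.8, 4.55 and 8.53 in WT against 1.08, 1.05 and 3.11 in DKO, or 23 against 5 read pairs (ratio 0.210, 0.0623 to 0.564). Hoxb2, the neighbour of Hoxb1, had 15.04, 19.3 and 8.53 in WT and 9.69, 12.6 and 11.4 in DKO, and its difference did not pass (log2 fold change -0.26 ± 0.32).

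Further Hoxb genes had overlapping values. Hoxb7 had 12.4, 10.2 and 6.40 in WT and 11.8, 9.46 and 7.26 in DKO (log2 fold change 0.00 ± 0.35). Hoxb9, a posterior gene of thoracic segments, had 5.37, 9.11 and 13.9 in WT and 18.8, 11.6 and 14.5 in DKO. These values overlapped (log2 fold change 0.67 ± 0.34, limma, adjusted p = 0.0976), and the gene passed once WT library 3 was left out (0.97, adjusted p = 0.0289). Hoxb13, at the 5′ end of the cluster, was not tested and had 6.98, 4.55 and 5.33 in WT and 2.15, 0 and 4.67 in DKO, or 16 against 7 read pairs (ratio 0.422, 0.147 to 1.09), and it passed as lower only with no filter on low counts. Hoxb5 had 2.15, 2.28 and 0 in WT and no read in DKO.

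The Hoxa genes among the 38 had few reads. Hoxa3 (44.1 kb) holds the bodies of Hoxa4, Hoxa5 and Hoxa6 and had 4.84, 15.9 and 8.53 in WT and 7.53, 6.30 and 1.04 in DKO, which did not pass (log2 fold change -0.96 ± 0.50, limma, adjusted p = 0.107). It passed without WT library 1 (adjusted p = 0.0477) or DKO library 1 (0.0371). Outside the genes it contains, 3.48 ± 0.96 in WT and 3.18 ± 1.86 in DKO were left. Hoxa7 had 5.31 ± 1.55 and 3.49 ± 1.93 and did not pass. Hoxa10 had 6.45, 3.41 and 5.33 in WT and 3.23, 0 and 0 in DKO, or 14 against 3 read pairs (ratio 0.207, 0.0381 to 0.741).

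The Hoxc cluster was nearly silent. Its gene with most reads was Hoxc13, a gene of hair and nail, with 5.37, 11.4 and 13.9 normalized reads in WT and 14.0, 10.5 and 11.4 in DKO, which overlapped (log2 fold change 0.29 ± 0.34, limma, adjusted p = 0.5002). None of the other 8 Hoxc genes was tested, and their means ranged from 0 to 2.97 in WT. No Hoxc gene had values apart between the genotypes.

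**Figure D3:**
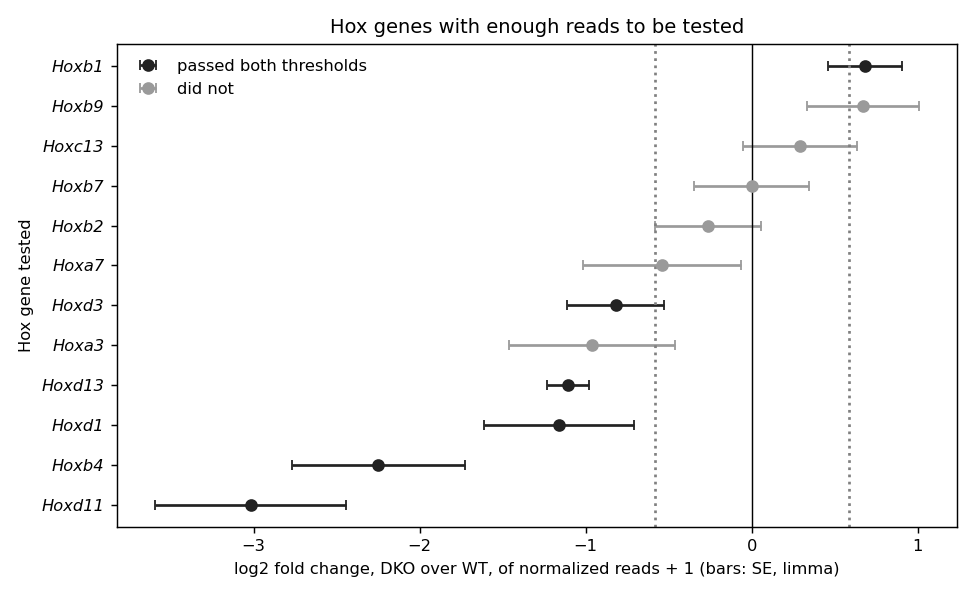
Log2 fold change of DKO over WT (normalized reads + 1) of 12 Hox genes tested, with limma's standard error as bars and dotted lines at 1.5-fold. Dark points passed both thresholds, and they run from Hoxd11 at -3.02 to Hoxb1 at 0.68.

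Summed over the genes of a cluster, the libraries of the 2 genotypes lay apart for Hoxd and overlapped for Hoxb and Hoxc. Sums are given for 3 clusters and for some paralog numbers only. The Hoxd genes together had 186, 190 and 193 normalized reads in WT and 78.0, 74.6 and 87.6 in DKO, a log2 ratio of -1.24. Without Hoxd13 the rest of the cluster had 62.5 ± 8.10 and 21.6 ± 3.36, again with no overlap and a log2 ratio of -1.53, so that the lower total was not that of Hoxd13 alone. The Hoxb total was 80.3 ± 4.86 and 72.8 ± 7.31, and the Hoxc total 17.6 ± 6.60 and 17.2 ± 1.45, with the libraries of both genotypes intermixed. Without Hoxb1, its most abundant gene, the Hoxb sum was 62.1 ± 5.49 and 42.9 ± 6.10, with no overlap and a log2 ratio of -0.53, so the overlap of the Hoxb totals rested on Hoxb1. These sums count reads of nested genes more than once and were not tested.

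**Figure D4:**
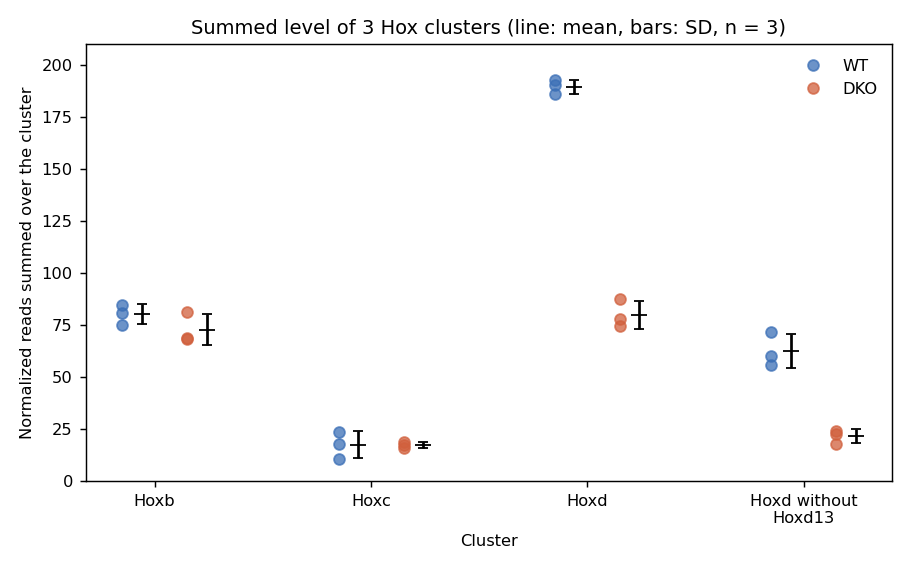
Normalized reads summed over the genes of the Hoxb, Hoxc and Hoxd clusters, and over Hoxd without Hoxd13. Points are libraries (WT blue, DKO red), with the mean and SD (n = 3) beside them. The Hoxd totals are 186 to 193 in WT and 74.6 to 87.6 in DKO, and those of Hoxb and Hoxc overlap.

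By paralog number, the 3 genes with number 3 had 34.8 ± 2.40 normalized reads in WT and 15.8 ± 2.13 in DKO with no overlap, while the libraries overlapped for number 2 (18.3 ± 5.06 and 14.0 ± 2.00). The log2 ratio of number 3 was -1.14, and -2.25 when Hoxd3 and Hoxa3, which overlap other members, were left out, so that it was then that of Hoxb3 alone. The central genes (4 to 8) had 52.6 ± 6.95 in WT and 25.5 ± 4.04 in DKO, a log2 ratio of -1.04. The 4 genes with number 4 gave most of this difference, with 24.4 ± 1.81 and 8.63 ± 2.24, and number 5 had 7.01 ± 3.83 and 1.41 ± 0.64 (-2.31). The WT libraries of number 5 were uneven, with 5.37, 11.4 and 4.27. The posterior genes (9 to 13) had 188 ± 9.70 and 97.8 ± 7.43, a log2 ratio of -0.94, and without Hoxd13 60.9 ± 10.9 and 39.4 ± 4.99 (-0.63).

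Posterior genes were also summed by cluster, with no test between the clusters. Hoxd9 to Hoxd12 had 26.7 ± 3.77 normalized reads together in WT and 5.25 ± 2.01 in DKO, a log2 ratio of -2.35, and the 4 posterior Hoxa genes 7.06 ± 1.77 and 3.18 ± 1.86. In Hoxb the posterior genes had 15.07 ± 3.63 in WT and 17.2 ± 5.01 in DKO, and in Hoxc 12.1 ± 4.86 and 13.7 ± 0.98, both with overlapping libraries. The Hoxb sum joins Hoxb9, higher in mean in DKO, and Hoxb13, lower in mean. Of the posterior numbers, 10 and 11 showed the lowest ratios, with 11.1 ± 2.26 and 2.47 ± 0.66 for number 10 and 14.8 ± 4.92 and 2.08 ± 2.74 for number 11. Number 9, where Hoxb9 gave most reads, had 14.4 ± 5.05 and 18.5 ± 3.24, a log2 ratio of 0.36 that turned to -0.49 without Hoxb9. Number 11 rested on Hoxd11, without which its log2 ratio was -0.12.

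The 26 members that were not tested had means of at most 8.30 normalized reads in WT and 2.98 in DKO. Of the 23 among them with a read, 21 had a lower mean in DKO and 2, Hoxa9 (0.71 and 1.05) and Hoxc10 (0 and 0.70), a higher one. Over all 21655 genes with a read, 50.4% had a lower mean in DKO and 24.3% had all DKO values below all WT values. In 6 of the 23, Hoxa2, Hoxa10, Hoxb3, Hoxd4, Hoxd8 and Hoxd10, all DKO values lay below all WT values. That is near the share of all genes and is not read as a result. Among the others, the interval of the read pair ratio of Hoxa5 (11 against 2 read pairs, ratio 0.176, 0.0189 to 0.804) did not include 1, although its libraries overlapped. Hoxa5 had 1.07, 7.97 and 3.20 in WT and 1.08, 1.05 and 0 in DKO, so WT library 2 gave most of its WT reads.

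Transcripts in or near the clusters that are not Hox genes mostly had few or no reads. Of 17 listed, 12 were in the table, and 2 were tested, Haglr and Halr1, a long non-coding RNA that lies outside the Hoxa genes, beyond the 3′ end of that cluster. With limma 0 of the 2 passed, as with edgeR and DESeq2, and 1 of 2 had an unadjusted p under 0.05. Halr1 was far above all of the 38 Hox genes with 796 ± 49.2 and 936 ± 23.3 normalized reads in the 2 genotypes, or 74.5 and 87.5 per kilobase. All its DKO values lay above all its WT values (log2 fold change 0.23 ± 0.05, limma, adjusted p = 2.37e-04), and it missed only the 1.5-fold threshold. Hotair had no read, and Hottip had none in WT.

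Of the genes beside the clusters 2 of 7 tested passed, both higher in DKO, against 7.35% of all genes tested that passed as higher. Evx1, the homeobox gene at the 5′ end of Hoxa and a gene of the primitive streak, rose from 5.37, 4.55 and 5.33 to 30.1, 18.9 and 21.8 normalized reads (log2 fold change 1.99 ± 0.31, limma, adjusted p = 5.66e-06). Ttll6, a tubulin-modifying enzyme gene beyond Hoxb13, rose from 20.2 ± 5.67 to 79.8 ± 9.49 (1.96 ± 0.20). The posterior Hoxa genes next to Evx1, Hoxa11 and Hoxa13, had group means under 1 normalized read in both genotypes.

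The partners of Hox proteins on DNA, the TALE homeodomain factors, were well expressed and 3 of 9 passed, against 15.4% of all genes tested. Meis1 rose from 27.8 ± 6.33 to 83.7 ± 7.91 and Meis2 from 608 ± 42.9 to 1977 ± 46.1 normalized reads (log2 fold changes 1.58 ± 0.18 and 1.70 ± 0.05), and Pknox2 fell from 218 ± 20.0 to 106 ± 9.97 (-1.02 ± 0.10). Of the ParaHox genes, the sister group of the Hox clusters, 2 of 3 tested rose, against 7.35% of all genes tested. Cdx2, an activator of central Hox genes, had 10.2, 12.5 and 17.1 in WT and 36.6, 42.0 and 37.3 in DKO (1.50 ± 0.24, limma, adjusted p = 6.55e-06). Cdx4 had 6.45, 2.28 and 13.3 in WT and 15.07, 18.4 and 12.96 in DKO (1.21 ± 0.41), values that overlapped, and its call was lost without WT library 2 or DKO library 2 (adjusted p = 0.129 and 0.0632) and with DESeq2 (0.0602). Of the central Hox genes only 3 were tested, of which Hoxb4 passed as lower and Hoxa7 and Hoxb7 did not pass. A link between the Cdx genes and the Hox genes was not tested.

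Genes of the posterior axis and streak, in which Hox genes start, gave 5 lower and 1 higher of 8 tested. Among all genes tested, 8.04% passed as lower and 7.35% as higher. The mesoderm regulator T fell from 45.1, 44.4 and 48.0 normalized reads to 11.8, 21.01 and 13.5, and Fgf8 from 146 ± 10.99 to 4.403 ± 2.38 (log2 fold change -4.87 ± 0.26). Nkx1-2 fell by 1.28 ± 0.16 and Wnt3a by 1.16 ± 0.46 on the log2 scale, and Tbx6 by 0.67 ± 0.28, of which the calls for Wnt3a and Tbx6 were lost under several alternatives (adjusted p up to 0.190 and 0.153 with 1 library left out). Cyp26a1, the enzyme that degrades retinoic acid, rose from 19.9, 21.6 and 7.47 to 152, 150 and 128 (3.18 ± 0.24, limma, adjusted p = 2.18e-11).

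Further retinoic acid genes gave 2 higher and 1 lower of 14 tested. Among all genes tested, 15.4% passed in either direction, 7.35% as higher and 8.04% as lower. Counts of the retinoic acid, Polycomb and Trithorax lists were not tested against these shares and are not read as results about the lists. Crabp2, which carries retinoic acid to its receptors, rose from 764 ± 31.8 to 1370 ± 54.9 normalized reads, and Aldh1a3, which makes it, from 11.5 ± 1.77 to 37.9 ± 3.10. Dhrs3, which limits it, fell from 472 ± 26.3 to 118 ± 9.62 (log2 fold change -1.996 ± 0.08). Aldh1a2 had 60.4 ± 7.98 and 41.8 ± 11.03, without overlap, and missed only the 1.5-fold threshold (log2 fold change -0.55 ± 0.19, limma, adjusted p = 0.0158). It passed without WT library 1, DKO library 1 or DKO library 2. Of 22 Polycomb subunits, which hold Hox clusters silent, 2 passed, both higher (Phf19 by 0.74 ± 0.10 and Cbx8 by 0.86 ± 0.19 on the log2 scale), and the catalytic subunit Ezh2 had 3667 ± 43.4 and 3833 ± 114. Of 10 genes in the list named Trithorax, taken as genes that keep Hox genes active, 1 passed, Kdm6b, which fell from 414 ± 31.6 to 275 ± 51.5. The Kmt2 genes, Men1, Ash2l, Wdr5, Rbbp5 and Kdm6a of this list did not pass. The fold change of Kdm6b was under 1.5 without WT library 1, DKO library 1 or DKO library 2 (-0.54, -0.51 and -0.54 on the log2 scale). It was also under 1.5 with a pseudocount of 10 (-0.58).

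**Figure D5:**
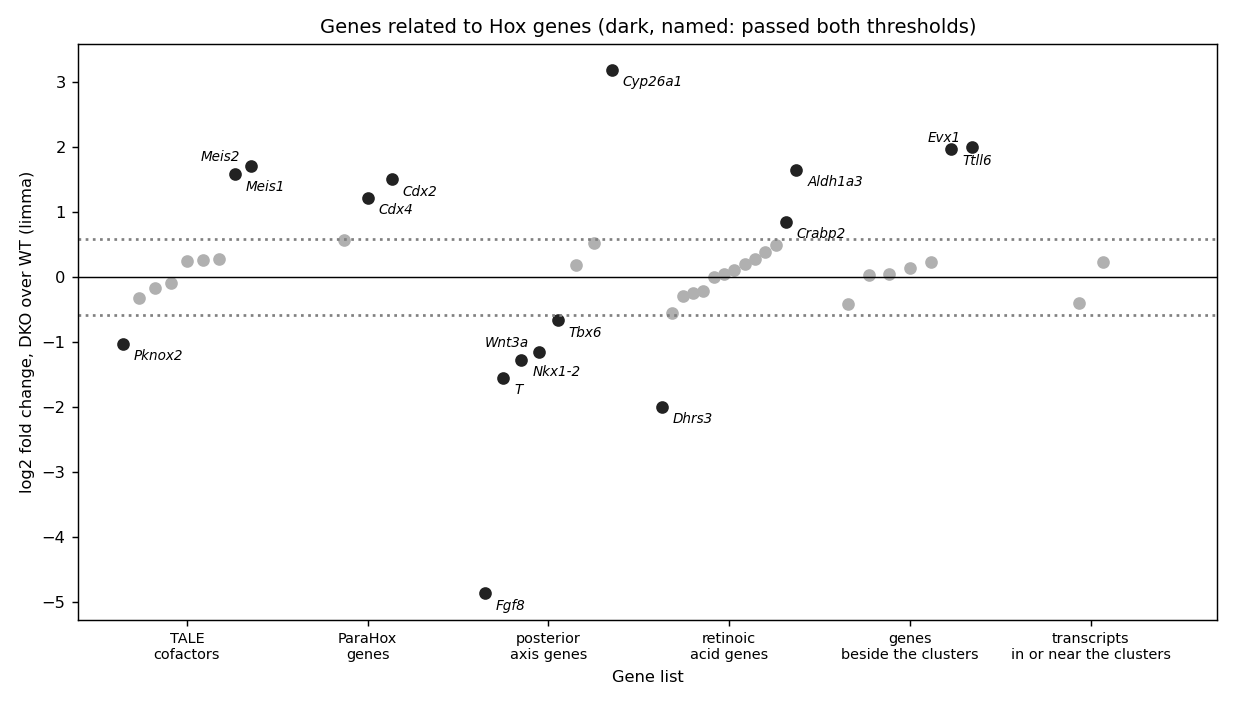
Log2 fold change of DKO over WT (limma) of the tested genes in 6 lists related to Hox genes, 1 point per gene, with dotted lines at 1.5-fold. Named dark points passed both thresholds, from Fgf8 at -4.87 to Cyp26a1 at 3.18, and both tested transcripts in or near the clusters (Haglr and Halr1) lie within the lines.

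Some markers of other cell types moved with the genotype, and their part in the Hox results was not tested. Among all genes tested, 8.04% passed as lower and 7.35% as higher in DKO. Of 7 fibroblast markers tested, 2 fell, Dcn (1330 and 300 normalized reads in WT and DKO) and Col1a2 (174 and 82.7). The 11 in the table summed to 1641 to 1719 in WT and 538 to 581 in DKO, most of it Dcn. Col1a1 and Acta2 had lower means in DKO and did not pass. Thy1 (58.4 and 63.6), Pdgfrb (43.2 and 46.3) and Col3a1 (19.2 and 25.6) had higher means and did not pass. Lum, not tested, had 2.97 and 4.57, while Prrx1 stood at 0.36 and 0.35 and Postn at 0 and 0.35. Of 7 trophoblast markers tested, 6 rose, Cdx2 among them (of these, Krt7 was not called with a pseudocount of 10 or without WT library 2 or DKO library 2, and Eomes without WT library 1 or DKO library 2), and the 8 summed to 1809 to 1922 in WT and 3281 to 3648 in DKO, with Elf5 at 0.72 and 1.04. Of 3 presomitic markers tested, 2 fell (Dll3 and Tbx6), and Msgn1 stood at 1.46 and 0.18. The 5 summed to 1115 to 1161 and 706 to 763, most of it Tcf15 (739 and 613), which did not reach 1.5-fold. Of 5 endoderm markers 1 rose (Gata6) and the 6 summed to 65.0 to 89.6 and 86.6 to 101, and of 4 neural markers Sox1 fell and Pax6 rose, with sums of 1756 to 1823 and 1472 to 1481.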

How the data were processed

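RNA sequencing of day 2 EpiLCs, 3 WT and 3 DKO libraries, was analysed from the deposited expression table. Per the study's methods and the submitters' processing notes, ribosomal RNA was depleted, strand-specific libraries were sequenced paired-end, remaining ribosomal reads were removed with Bowtie2, the rest was aligned to mm10 with STAR, duplicates were removed with SAMtools, and the reads of each refGene gene body were counted and normalized with DESeq2. Versions are not given in the sources used here. The deposited values are a signal, namely reads divided by the authors' size factor of the library. A comparison table of the authors, with fold changes and p-values, was not used.

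Reads were recovered as whole multiples of the smallest step (100% of values within 0.001 of a whole read). Rows without a symbol (138 of 33812, 0.500% to 0.532% of reads) were left out. Of gene pairs nested on the same strand, the inner gene exceeded its host in 8 of 619, and on opposite strands in 83 of 173, so values are read as stranded counts over exons and introns. Positions came from GENCODE M21 by transcript identifier (99.6% of rows with a symbol, a few from RefSeq GRCm38.p6).

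The test was limma 3.58.1 in R 4.3.3 on log2(value + 1) with a variance trend, on 1 row per gene that passed filterByExpr of edgeR 4.0.16 with the genotype as group. A fold change on this scale understates that of genes with few reads. Genes passed at an adjusted p under 0.05 and a fold change over 1.5, as in the study's methods. edgeR and DESeq2 1.42.0 on recovered reads, other pseudocounts and filters, scalings and left-out libraries were alternatives, and edgeR on read pairs was added after seeing the data. On simulated reads of 17038 genes for DKO against WT, limma recovered 94% of 200 changed genes, and 52.4% of the 21 changed genes with a mean under 30 reads. Intervals of read pair ratios are exact and, like floors of 3 read pairs, cover counting error alone, as the libraries had no molecular identifiers. Sums over genes are descriptions.

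Members, related gene lists, markers and motifs were chosen with earlier results of these data known. Named genes are the members, of which 1 is not reported here, and of the related lists those that passed or define the list. All columns of per-sample values were used. Correlations of equally numbered libraries, as deviations from their group means over 11930 genes, were 0.01, -0.03 and 0.04, so libraries were not paired.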

Additional observations from a re-analysis of the deposited data

How the results depend on the processing

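With 1 line per genotype and few read pairs per Hox gene, values under about 10 normalized reads rest on few counts and whether such genes are tested depends on the filter. Without a fold-change threshold 9098 genes passed instead of 2623. The 6 Hox genes became 3 with a pseudocount of 10 (Hoxb4, Hoxd11 and Hoxd13), 3 with a filter on a mean of 10 (which leaves Hoxb4, Hoxd1 and Hoxd11 out) and 13 with no filter, where 13.2% of all genes passed and Hoxa5, Hoxa10, Hoxb3, Hoxb13, Hoxd4, Hoxd8 and Hoxd10 joined as lower. Between 4 and 7 passed with 1 library left out (4 without WT library 2 and 4 without DKO library 2), 3 with DESeq2 (Hoxb1, Hoxb4 and Hoxd13) and 6 with edgeR on reads or read pairs. Hoxd13 and Hoxb4 passed under every alternative in which they were tested, Hoxd13 with log2 fold changes from -1.16 to -1.0016. Hoxd1, Hoxd3 and Hoxd11 did not pass with DESeq2 (adjusted p = 0.0724, 0.0537 and 0.137), and Hoxb1, Hoxd1 and Hoxd3 fell under 1.5-fold with a pseudocount of 10. Directions reversed for Hoxb7 (0.0011 with a pseudocount of 0.1; 0.18, 0.06 and 0.16 without WT library 1, WT library 2 or DKO library 3) and for Hoxc13 (-0.07 without WT library 1). With 1 library left out, Hoxb7 ranged from -0.24 to 0.18 and Hoxc13 from -0.074 to 0.54. With a replicate block 6 Hox genes and 2602 genes passed. The numbers do not show paired libraries, and the block changed no call of a Hox gene. At a limit of 5 normalized reads 17 Hox genes were detected in WT and 17 in either genotype, at 50 there was 1 in WT, 1 in DKO and 1 in either, and at 1 read per kilobase 20 in WT, 9 in DKO and 20 in either. Without its most abundant gene, the log2 ratio was -0.53 for Hoxb, -1.53 for Hoxd, -1.42 for the central and -0.63 for the posterior genes. The cause of the other changes was not tested.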
